A study of Homo sapiens with 6 samples.

Results

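Bladder cancer-linked long noncoding RNAs are transcripts that code for no protein and whose amounts have been studied in urothelial tumours. The set described here holds 10 genes, UCA1, H19, HOTAIR, MALAT1, NEAT1, GAS5, SNHG1, SNHG12, SNHG16 and PVT1, chosen by name. All 10 had a row among the 58233 Ensembl gene rows of the deposited tables, which also hold 15507 genes that GENCODE classes as long noncoding RNAs. RNA was sequenced from T24, an established human cell line of transitional cell bladder carcinoma that carries an activated HRAS gene. The Q63E group (n = 3 libraries) stably expressed a constitutively active mutant of RhoC, a small GTPase that drives the actin cytoskeleton and cell migration, and the VEC group (n = 3 libraries) carried the vector alone. Both groups were made by lentiviral transduction and puromycin selection, and the VEC cells lack the mutant. No group received RhoC without the mutation. The mutation, the added amount of RhoC and differences between the transduced populations therefore cannot be told apart. The labels do not say whether the libraries of a group came from separate cultures or transductions, so the p-values measure library-to-library spread only, and that spread may be technical.

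Long noncoding RNAs act in several ways. NEAT1 is the scaffold of paraspeckles, nuclear bodies that hold RNA-binding proteins and edited RNAs, and MALAT1 collects in nuclear speckles, where splicing factors are stored. GAS5 and the SNHG genes are hosts: small nucleolar RNAs (snoRNAs), guides for ribosomal RNA modification, are cut from their introns, and the spliced remainder is often degraded by nonsense-mediated decay during translation. H19 is an imprinted fetal transcript and the precursor of miR-675. PVT1 lies downstream of the MYC oncogene, HOTAIR lies in the HOXC cluster and is known to bind the chromatin complex PRC2, and UCA1 was first described as a transcript abundant in urothelial carcinoma.

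NEAT1 and MALAT1, the members that were higher in Q63E cells, are neighbours on chromosome 11. They share an unusual 3′ end, which is not a poly(A) tail: RNase P cuts the precursor, and U-rich stretches fold back on a genome-encoded A-rich tract to form a triple helix. These ends are shown as the sequence feature that the members with higher levels have in common. Both are 60-base windows on the plus strand of GRCh38, at chr11:65445481-65445540 for the NEAT1 transcript of 22743 bases and at chr11:65506057-65506116 for the MALAT1 transcript of 8708 bases. Capitals mark the longest 3′ end of that NEAT1 transcript that also occurs in MALAT1 and, before it, the longest stretch that the windows share.
NEAT1: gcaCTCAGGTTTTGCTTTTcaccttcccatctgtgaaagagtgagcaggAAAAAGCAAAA
MALAT1: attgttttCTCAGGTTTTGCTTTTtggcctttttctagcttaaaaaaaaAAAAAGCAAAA
The shared A-rich tract, AAAAAGCAAAA, was found in 0.437% of the 206694 annotated transcripts, and the shared U-rich stretch of 16 bases was found in 2 transcripts. In the annotation this NEAT1 transcript stops with the tract, and the MALAT1 transcript runs on for 353 bases beyond it.

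The mature strands of miR-675, cut from H19, are given with the seed, bases 2 to 8, in capitals. The strands lie on the minus strand at chr11:1996768-1996787 for the 3p strand and at chr11:1996800-1996822 for the 5p strand.
hsa-miR-675-3p: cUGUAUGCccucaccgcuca
hsa-miR-675-5p: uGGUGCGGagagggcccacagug
The strands have different seeds. The MIR675 row was at 0 in all 6 libraries, as were 1877 of the 1879 miRNA rows, so these tables give no level of it.

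Windows of 300 bases around annotated starts, 250 before and 50 after, were read for 6 of the 10 members from RefSeq (GRCh38.p14): H19, MALAT1, GAS5, SNHG1, SNHG12 and SNHG16. UCA1, HOTAIR and NEAT1 had no entry, and PVT1 was not read. The 6 motifs searched, on both strands, were the E-box CACGTG, the AP-1 site TGANTCA, the TEAD site ACATTCC, the TATA box TATAAA, a kappa B site and the CArG box bound by serum response factor. Of all 35116 windows in that table, 7.26% hold CACGTG, 7.71% TGANTCA, 3.46% ACATTCC, 11.5% TATAAA, 0.191% the kappa B site and 1.29% the CArG box. No window held more than 1 match, so none overlapped. TATAAA was found in a MALAT1 window and in the SNHG1 window, where capitals mark it. The MALAT1 window, at chr11:65498795-65499094 on the plus strand, belongs to a start inside the gene, and its match begins 30 bases before that start. The SNHG1 window, at chr11:62855836-62856135 on the minus strand, is shown because it reaches past the start of SLC3A2, the neighbouring gene on the other strand, at 62856102. Its match reads on the opposite strand, 39 bases after the start.
MALAT1 internal start: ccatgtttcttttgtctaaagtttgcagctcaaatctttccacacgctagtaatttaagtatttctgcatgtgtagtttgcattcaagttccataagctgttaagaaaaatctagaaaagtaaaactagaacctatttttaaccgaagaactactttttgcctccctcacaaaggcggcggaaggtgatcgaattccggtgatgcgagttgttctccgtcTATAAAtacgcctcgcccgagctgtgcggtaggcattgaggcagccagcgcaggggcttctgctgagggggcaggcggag
SNHG1: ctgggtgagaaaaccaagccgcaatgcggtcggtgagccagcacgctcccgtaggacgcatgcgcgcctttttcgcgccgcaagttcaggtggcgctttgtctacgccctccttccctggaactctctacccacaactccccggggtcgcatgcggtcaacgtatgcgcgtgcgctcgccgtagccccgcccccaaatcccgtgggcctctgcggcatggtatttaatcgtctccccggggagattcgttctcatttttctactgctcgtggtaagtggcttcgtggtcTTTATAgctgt
The H19, GAS5, SNHG12 and SNHG16 windows and the other MALAT1 window held none of these motifs. The GAS5 window, at chr1:173868996-173869295 on the minus strand, lies upstream of the GENCODE span, which ends at 173868882, and does not touch it. The SNHG12 window, at chr1:28581824-28582123 on the minus strand, belongs to a start inside the GENCODE span of that gene. Which starts are used in T24 cells was not tested.

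The authors deposited 1 value per gene and library, taken here as FPKM, which corrects for transcript length and library size. The values summed to 726929 to 741778 in Q63E libraries and 746175 to 769026 in VEC libraries. Read depth is unknown, since the values gave no whole-read steps. RHOC, the introduced gene, averaged 1746 ± 22.3 FPKM in Q63E cells and 227 ± 8.27 in VEC cells (SD, n = 3 each; log2 difference 2.94, adjusted p = 3.12e-07, limma). Of 14 urothelial and epithelial markers, 6 had a mean of at least 1 FPKM, namely KRT7, KRT8, KRT18, KRT19, GATA3 and PPARG, while CDH1, UPK3A and KRT5 were at 0. Their sum was 3372 to 3477 FPKM in Q63E and 2129 to 2171 FPKM in VEC libraries. Of 8 leukocyte markers CD68 reached 1 FPKM (list sum 9.77 to 11.4 in Q63E, 17.9 to 19.9 in VEC) and PTPRC was at 0. Of 8 fibroblast markers COL1A1 did (2.16 to 3.33 in Q63E, 1.77 to 2.17 in VEC), and of 6 endothelial markers EGFL7 did (3.45 to 4.52 in Q63E, 15.8 to 18.7 in VEC). The part of these markers in the results was not tested. Mitochondrial genes took 5.58 to 6.27% of the summed values in Q63E and 8.44 to 9.44% in VEC libraries. Differences are log2(FPKM + 1), Q63E minus VEC, fitted with limma over the 13346 genes with a mean of at least 1 FPKM, two-sided, with Benjamini-Hochberg adjustment over all of them and a threshold of 0.05. Adding 1 makes the fold changes of weakly expressed genes smaller than the ratio of their means.

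Of the 9 members with enough signal to be tested, NEAT1 and MALAT1 were higher in Q63E cells, H19 was lower, and UCA1, GAS5, SNHG1, SNHG12, SNHG16 and PVT1 did not pass. That is 3 of 9, beside 25.3% of all genes tested and 12.7% of the 1158 long noncoding RNA genes tested and too few genes to set that share apart from either. By direction, 11.3% of all genes tested were called higher and 14.0% lower, and of the long noncoding ones 7.25% were called higher and 5.44% lower. For 4 of the 9, UCA1, H19, MALAT1 and NEAT1, the libraries of the groups did not overlap, beside 43.9% of all genes tested and 26.0% of the long noncoding ones. The median difference was 0.13 over the members and 0.06 over the long noncoding RNA genes, and -0.0023 over all genes tested. HOTAIR was listed at 0 in all 6 libraries. In a bulk sample, a smaller number of cells with a transcript and less of it in each cell cannot be told apart.

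**Figure D1:**
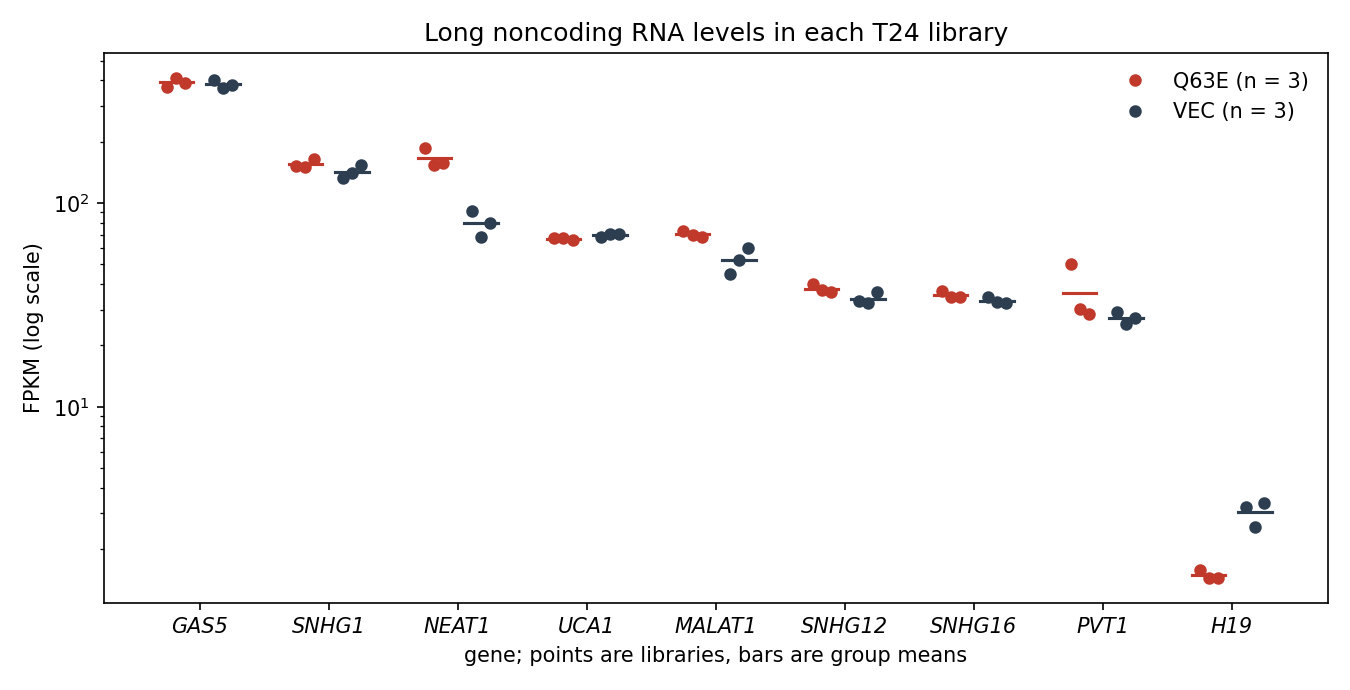
FPKM on a log scale of the members above 0 in each T24 library, with Q63E libraries left of VEC libraries and a bar at each group mean. GAS5 lies highest in both groups and H19 lowest, and the Q63E points of NEAT1 and MALAT1 lie above all their VEC points.

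GAS5 had the highest FPKM of the members, and the order beneath it differed between the groups. This order compares genes of unlike length. Neither the length behind each value nor any selection of polyadenylated RNA is stated, and the order may depend on both. In Q63E cells GAS5 was followed by NEAT1 and SNHG1, whose libraries overlapped, then by MALAT1, UCA1, then SNHG12, PVT1 and SNHG16 with overlapping libraries, and H19. In VEC cells GAS5 was followed by SNHG1, then NEAT1 and UCA1 with overlapping libraries, MALAT1, SNHG12 and SNHG16 with overlapping libraries, PVT1 and H19. Among the 15507 long noncoding RNA rows GAS5 ranked 3 to 4 by FPKM in every library, and H19 ranked 832 to 893 in Q63E and 453 to 560 in VEC libraries. The members' FPKM summed to 946.7 to 979.8 in Q63E and 792 to 843 in VEC libraries. As a share of all long noncoding RNA FPKM this was 7.03 to 8.46% in Q63E and 5.84 to 7.31% in VEC libraries, ranges that overlap.

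NEAT1 (ENSG00000245532) showed the widest difference of the members. The gene spans chr11:65422774-65445540 on the plus strand of GRCh38, with 8 annotated transcripts of 512 to 22743 bases. Its level was 187, 154 and 157 FPKM in Q63E libraries, against 91.9, 68.1 and 79.7 FPKM in VEC libraries. The lowest Q63E library lay above the highest VEC library, and the first library was the highest in each group. The means were 166 ± 18.1 FPKM in Q63E and 79.9 ± 11.9 FPKM in VEC cells (SD, n = 3 each), a ratio of 2.08. The log2 difference was 1.05 (SE 0.12, 95% interval 0.76 to 1.34, adjusted p = 0.00176, limma), the 38th highest of the 1158 long noncoding RNA genes tested. The short transcript, which ends in a poly(A) tail, lies within the long one, so a value per gene does not separate them, and the labels do not state whether polyadenylated RNA was selected.

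MALAT1 (ENSG00000251562) lies 52148 bases downstream of NEAT1 on the same strand, at chr11:65497688-65506516. It measured 73.0, 69.8 and 68.0 FPKM in Q63E libraries, against 44.7, 52.8 and 59.9 FPKM in VEC libraries. The groups did not overlap, and the VEC libraries spread more widely. The log2 difference was 0.42 (SE 0.10, 95% interval 0.18 to 0.67, adjusted p = 0.0262, limma). This call rested on the set of libraries: it was lost without any single Q63E library (adjusted p 0.0611 to 0.0809) or without VEC replicate 2 (0.0642), and also with no filter on low values (0.0639). The ratio of NEAT1 to MALAT1 was 2.56, 2.21 and 2.31 in Q63E libraries, against 2.06, 1.29 and 1.33 in VEC libraries. These ratios did not overlap, and the exact two-sided permutation test gave p = 0.1, the smallest that 3 against 3 libraries allow.

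Around NEAT1 and MALAT1, genes were called about as often as over all genes tested, of which 25.3% passed. Within 1 Mb of NEAT1, 60 other genes were tested, of which 5 were higher and 8 lower in Q63E cells, 23 had a difference above 0, and the median log2 difference was -0.07. Within 1 Mb of MALAT1, 63 other genes were tested, of which 5 were higher and 8 lower, 24 had a difference above 0, and the median was also -0.07. None of the 60 had a log2 difference above that of NEAT1, the highest reaching 0.73. FRMD8, the nearest tested gene upstream, averaged 21.5 ± 3.22 FPKM in Q63E and 23.0 ± 1.05 FPKM in VEC cells (SD, n = 3 each; log2 difference -0.10, adjusted p = 0.518, limma). FAUP4, a pseudogene between NEAT1 and MALAT1, ranged from 15.4 to 70.8 FPKM in Q63E and from 11.7 to 62.2 FPKM in VEC libraries, so its value was not stable within either group. The 7 annotated genes that overlap NEAT1 or MALAT1, MIR612 among them, were at 0 in every library.

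**Figure D2:**
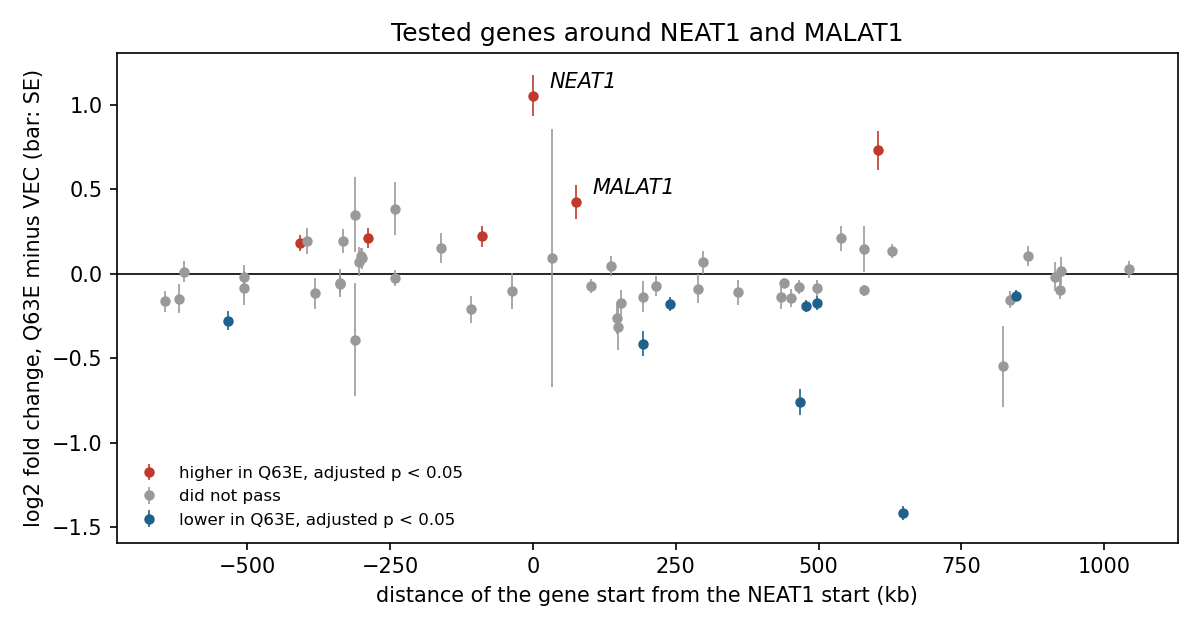
Log2 difference, Q63E minus VEC, with its SE for NEAT1 and every tested gene within 1 Mb of it, MALAT1 among them, against the distance of the gene's start from the start of NEAT1 in kb. NEAT1 at 1.05 is the highest point, and most of its neighbours lie near 0.

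Paraspeckle protein genes passed at a share close to the 25.3% of all genes tested. Of 33 tested genes of that list, 3 were higher, 5 lower and 25 did not pass, with a median log2 difference of -0.04. RBM4B, a splicing regulator, was higher at 14.4 ± 1.29 FPKM in Q63E and 8.98 ± 0.73 FPKM in VEC cells (SD, n = 3 each; log2 difference 0.62), as was TAF15 (0.27). PSPC1, an RNA-binding paraspeckle component, was lower (log2 difference -0.26, adjusted p = 0.0208, limma), a call lost without Q63E replicate 1 (0.0677) or replicate 3 (0.0667). NONO and SFPQ, core proteins of paraspeckles, were looked up after their values were seen. NONO was higher at 381 ± 9.93 FPKM in Q63E and 329.8 ± 2.47 FPKM in VEC cells (0.21, adjusted p = 0.0050, limma). SFPQ measured 170.5 ± 4.51 FPKM in Q63E and 165 ± 6.46 FPKM in VEC cells and did not pass (0.04, adjusted p = 0.482, limma). Of 22 nuclear speckle proteins, 3 were higher, none was lower and 19 did not pass, with a median log2 difference of 0.08. NKTR, a cyclophilin of speckles, averaged 29.6 ± 1.36 FPKM in Q63E and 19.6 ± 2.01 FPKM in VEC cells (log2 difference 0.57, adjusted p = 0.00362, limma), and kept its call in every alternative. The calls of PNN (0.20) and of the splicing factor SRSF6 (0.14) were lost without most of the single libraries. Over the other genes tested within 1 Mb, the median log2 difference was 0.28 around NKTR, -0.04 around PNN and 0.13 around SRSF6. It was -0.05 around RBM4B, 0.17 around TAF15 and -0.08 around PSPC1.

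H19 (ENSG00000130600), at chr11:1995176-2001470 on the minus strand, was the weakest member above 0. Its level was 1.58, 1.45 and 1.45 FPKM in Q63E libraries, against 3.22, 2.58 and 3.38 FPKM in VEC libraries. The groups did not overlap, and the Q63E libraries lay close together. The mean was 1.49 ± 0.08 FPKM in Q63E and 3.06 ± 0.42 FPKM in VEC cells (SD, n = 3 each), a ratio of 0.488. The log2 difference of the values with 1 added was -0.70 (SE 0.13, 95% interval -1.02 to -0.38, adjusted p = 0.0117, limma), and with 0.1 added it was -0.98. Of the 15 other genes tested within 1 Mb, 4 were lower and none was higher, with a median log2 difference of -0.19. Over all genes tested, 25.3% passed, 14.0% of them all as lower and 11.3% as higher. IGF2, the growth factor gene imprinted from the other parental copy, was below the filter at 0.83, 0.96 and 0.76 FPKM in Q63E libraries, against 0.59, 0.56 and 0.46 FPKM in VEC libraries. It was looked up after its values were seen. The nearest tested neighbours, MRPL23 (-0.28, adjusted p = 0.588, limma) and TH (0.56, adjusted p = 0.108, limma), did not pass.

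UCA1 (ENSG00000214049), at chr19:15828206-15836326 on the plus strand, was among the more abundant and least variable members. Its level was 67.7, 67.4 and 65.7 FPKM in Q63E libraries, against 67.9, 70.8 and 70.1 FPKM in VEC libraries. The groups lay side by side without overlap, 0.15 FPKM apart at the closest. The log2 difference was -0.06 (SE 0.04, 95% interval -0.14 to 0.03, adjusted p = 0.315, limma). UCA1 ranked 17 to 21 by FPKM among long noncoding RNA rows in all 6 libraries. It shares 489 exon bases with LINC01764 on the other strand, which was at 0.24 FPKM in Q63E replicate 3 and at 0 elsewhere. Of the nearest tested genes, WIZ, a zinc finger gene 378255 bases away, was lower in Q63E cells. It averaged 14.1 ± 0.49 FPKM in Q63E and 17.3 ± 0.50 FPKM in VEC cells (SD, n = 3 each; log2 difference -0.28, adjusted p = 0.0138, limma). TPM4, 230695 bases away, did not pass (-0.04). Of the 21 other genes tested within 1 Mb, 2 were lower and none was higher, with 4 above 0 and a median log2 difference of -0.08. Over all genes tested, 14.0% were called lower and 11.3% higher.

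HOTAIR, at chr12:53962308-53974956 on the minus strand, had no signal to compare, and the row of HOXC11, which it overlaps, was also at 0 in all libraries. The nearest tested HOXC genes on either side were above 0. HOXC13 averaged 2.18 ± 0.26 FPKM in Q63E and 3.19 ± 0.35 FPKM in VEC cells (SD, n = 3 each; log2 difference -0.40, adjusted p = 0.0654, limma). HOXC6 averaged 9.33 ± 1.19 FPKM in Q63E and 9.88 ± 1.1 FPKM in VEC cells and did not pass (-0.08). Of the 16 genes of the complexes known to bind HOTAIR, PRC2 and LSD1-CoREST, none was higher, 1 was lower and 15 did not pass, with a median log2 difference of 0.02. Over all genes tested, 11.3% were called higher and 14.0% lower. The lower gene was REST, a repressor that recruits CoREST, named after its value was seen, at 7.57 ± 0.18 FPKM in Q63E and 9.43 ± 0.11 FPKM in VEC cells (-0.28, adjusted p = 0.0205, limma), a call lost without 5 of the 6 single libraries. The most abundant were RBBP7, at 146 ± 2.28 FPKM in Q63E and 142 ± 1.53 FPKM in VEC cells, and PHF19, at 88.8 ± 2.41 FPKM in Q63E and 88.6 ± 0.05 FPKM in VEC cells.

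**Figure D3:**
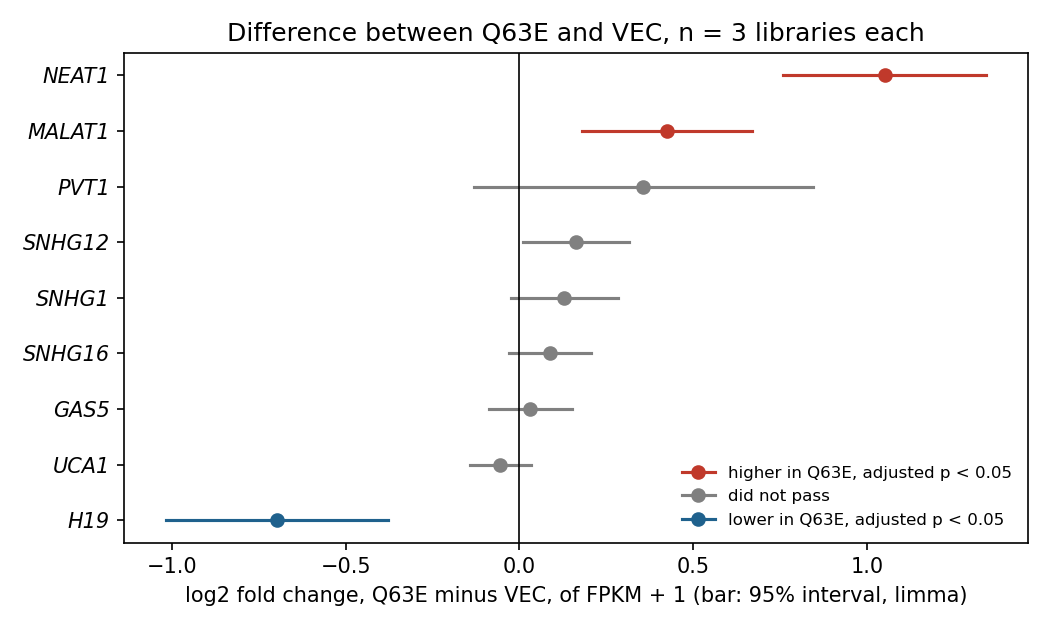
Log2 difference, Q63E minus VEC, of FPKM + 1 for the 9 tested members, with the 95% interval from limma. The unadjusted intervals of NEAT1, MALAT1 and SNHG12 lie above 0, that of H19 lies below 0, SNHG12 did not pass after adjustment, and PVT1 has the widest interval.

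The 4 snoRNA hosts in the set, GAS5, SNHG1, SNHG12 and SNHG16, did not pass, and all had small positive differences. Together they summed to 601, 633 and 626 FPKM in Q63E libraries, against 599, 573 and 603 FPKM in VEC libraries. GAS5 (ENSG00000234741, chr1:173863900-173868882, minus strand) measured 372, 411 and 390.1 FPKM in Q63E libraries, against 399.6, 367 and 381 FPKM in VEC libraries. These ranges overlapped, and the log2 difference was 0.03 (95% interval -0.09 to 0.15, adjusted p = 0.685, limma), turning to -0.0049 without Q63E replicate 2. GAS5 shares exon bases with its antisense gene GAS5-AS1, which measured 0.28 to 0.65 FPKM in Q63E and 0.55 to 2.63 FPKM in VEC libraries. The labels do not state whether reads were counted by strand, but GAS5-AS1 was far weaker than GAS5.

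SNHG1 (ENSG00000255717, chr11:62851988-62855914, minus strand) measured 152, 149.7 and 164 FPKM in Q63E libraries, against 132, 141 and 153 FPKM in VEC libraries. The groups overlapped, and its log2 difference was 0.13 (95% interval -0.02 to 0.28, adjusted p = 0.193, limma). SLC3A2, the heavy chain of several amino acid transporters, begins 188 bases from SNHG1 on the other strand and was higher in Q63E cells. It measured 257, 262 and 239 FPKM in Q63E libraries, against 182, 178 and 189 FPKM in VEC libraries (log2 difference 0.46, SE 0.05, adjusted p = 0.00103, limma). The ratio of SLC3A2 to SNHG1 was 1.69, 1.75 and 1.46 in Q63E libraries, against 1.38, 1.26 and 1.24 in VEC libraries. These ratios did not overlap, with an exact two-sided permutation p = 0.1, again the smallest possible. The region held 41 other tested genes, of which 9 were higher and 4 lower, beside 11.3% and 14.0% of all genes tested.

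SNHG12 (ENSG00000197989, chr1:28578538-28583132, minus strand) measured 39.9, 37.6 and 36.5 FPKM in Q63E libraries, against 32.9, 32.2 and 36.5 FPKM in VEC libraries. The highest VEC library reached into the Q63E range. Its log2 difference was 0.16 (95% interval 0.01 to 0.31, adjusted p = 0.112, limma). TRNAU1AP, a selenocysteine factor whose exons share 8 bases with SNHG12 on the other strand, measured 15.3 to 19.9 FPKM in Q63E and 16.4 to 20.3 FPKM in VEC libraries. The nearest tested genes, RCC1 (-0.08) and TAF12 (-0.12), did not pass, and none of the 27 other genes tested in the region did. Of all genes tested, 25.3% passed.

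SNHG16 (ENSG00000163597, chr17:76557766-76565348, plus strand) measured 36.8, 34.5 and 34.7 FPKM in Q63E libraries, against 34.6, 32.7 and 32.3 FPKM in VEC libraries. The ranges overlapped narrowly, and the log2 difference was 0.09 (95% interval -0.03 to 0.21, adjusted p = 0.241, limma). SNHG16 shares 1639 exon bases with ENSG00000284526, a protein-coding gene on the other strand. That gene measured 0.01 to 0.03 FPKM in Q63E and 0.04 to 0.09 FPKM in VEC libraries. CYGB, which codes for the oxygen-binding protein cytoglobin and lies 6591 bases away, was higher in Q63E cells. It measured 3.46, 3.48 and 3.45 FPKM in Q63E libraries, against 0.63, 0.73 and 0.61 FPKM in VEC libraries (log2 difference 1.43, SE 0.13, adjusted p = 0.000646, limma). The nearest tested gene on the other side, MXRA7, lies 107203 bases away and did not pass (0.16). Of the 38 other genes tested within 1 Mb of SNHG16, 6 were higher and 1 lower. In that region 27 genes had a difference above 0, the median log2 difference was 0.10 and the highest was 1.71. Of all genes tested, 11.3% were called higher and 14.0% lower.

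The snoRNAs themselves could not be followed. The 15 snoRNA rows inside SNHG1, SNHG12 and SNHG16 were at 0 in all 6 libraries, as were 929 of the 943 snoRNA rows of the tables. Among 24 other noncoding snoRNA hosts tested, 3 were higher, 7 lower and 14 did not pass, with a median log2 difference of 0.02. Of all genes tested, 11.3% were called higher and 14.0% lower, and of the long noncoding ones 7.25% and 5.44%. DANCR was lower at 34.2 ± 0.67 FPKM in Q63E and 58.2 ± 0.85 FPKM in VEC cells (SD, n = 3 each; log2 difference -0.75, adjusted p = 9.55e-05, limma). SNHG8 was lower at 81.8 ± 7.46 FPKM in Q63E and 136 ± 9.26 FPKM in VEC cells (-0.73, adjusted p = 0.00137, limma), and EPB41L4A-AS1 was lower as well (-0.64). All 7 tested genes within 1 Mb of DANCR had a difference below 0 (median -0.44), as did 5 of the 6 around SNHG8 (median -0.39), while the median around EPB41L4A-AS1 was 0.07. SNHG14 was higher at 7.11 ± 1.74 FPKM in Q63E and 3.76 ± 0.60 FPKM in VEC cells (0.76, adjusted p = 0.0238, limma), a call lost without Q63E replicate 1 or 3 or VEC replicate 1 or 3 (0.0527 to 0.0708). The other hosts that passed were looked up after their values were seen. Of these SNHG6 was lower at 237 FPKM in Q63E and 351 FPKM in VEC cells on average (-0.56, adjusted p = 0.00473, limma), in every alternative run. SNHG10 (0.57), SNHG19 (0.45), SNHG11 (-0.46), ZFAS1 (-0.30) and SNHG29 (-0.14) each lost the call without at least 3 of the single libraries.

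**Figure D4:**
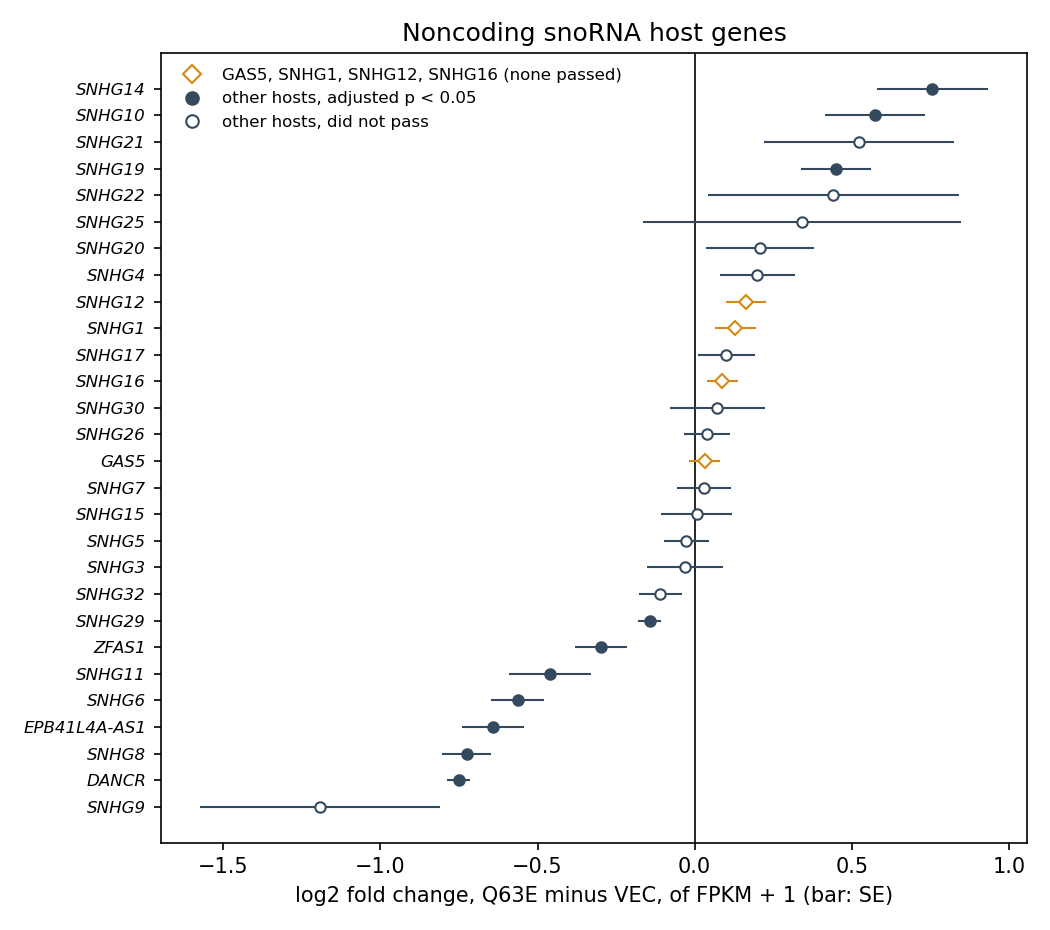
Log2 difference, Q63E minus VEC, of FPKM + 1 with its SE for 28 noncoding snoRNA host genes, with the members as open diamonds and filled circles for other hosts that passed. GAS5, SNHG1, SNHG12 and SNHG16 lie between 0.03 and 0.16, inside the range of the other hosts.

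Most genes of the machinery that makes snoRNAs and that degrades spliced hosts did not pass. Over all genes tested, 25.3% passed. Of 19 snoRNP core and assembly proteins, 3 were higher, 4 lower and 12 did not pass, with a median log2 difference of -0.03. SNU13, a core protein of box C/D particles, was lower at 67.6 ± 3.33 FPKM in Q63E and 97.3 ± 5.07 FPKM in VEC cells (SD, n = 3 each; -0.52, adjusted p = 0.00126, limma). GAR1 (-0.42), RRP9 (0.34) and ZNHIT3 (0.27) also passed, but each lost its call without most of the single libraries. Of the 36 other genes tested within 1 Mb of SNU13, 33 had a difference below 0 (median -0.45). The median of the region was -0.44 around GAR1, 0.34 around RRP9 and 0.23 around ZNHIT3. The part of these regions in the results was not tested. Of 20 nonsense-mediated decay factors, 2 were higher, 2 lower and 16 did not pass. UPF1, the helicase at the centre of this decay, was lower at 23.6 ± 1.05 FPKM in Q63E and 28.2 ± 0.50 FPKM in VEC cells (-0.24, adjusted p = 0.0157, limma), a call lost without VEC replicate 2 (0.0507). UPF3B was higher (0.24), lost without Q63E replicate 2 or VEC replicate 3, and CASC3 (0.19) and EIF4A3 (-0.18), parts of the exon junction complex, lost their calls without most of the single libraries. The regional median was -0.19 around UPF1, 0.02 around UPF3B, 0.0070 around CASC3 and -0.21 around EIF4A3.

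PVT1 (ENSG00000249859, chr8:127794533-128101253, plus strand) varied most among the Q63E libraries (coefficient of variation 32.9%, against 6.74% among VEC libraries). It measured 50.1, 30.3 and 28.6 FPKM in Q63E libraries, against 29.1, 25.4 and 27.3 FPKM in VEC libraries. Q63E replicate 1 stood apart, and the other Q63E libraries lay within or just above the VEC range. The log2 difference was 0.36 (95% interval -0.13 to 0.85, adjusted p = 0.251, limma), and 0.11 without Q63E replicate 1 (adjusted p = 0.366). MYC, upstream of PVT1, measured 59.8, 62.5 and 63.4 FPKM in Q63E libraries, against 39.6, 47.2 and 44.5 FPKM in VEC libraries (log2 difference 0.49, SE 0.07, adjusted p = 0.00358, limma). MYC did not overlap between the groups, whereas the ratio of MYC to PVT1 did, at 1.19, 2.07 and 2.22 in Q63E libraries, against 1.36, 1.86 and 1.63 in VEC libraries (exact two-sided permutation p = 0.7). Small RNA rows inside PVT1 were erratic. RF02164, whose 194 bases lie in a PVT1 exon on the same strand, measured 8.5, 40.9 and 0 FPKM in Q63E libraries, against 12.2, 59.3 and 51.6 FPKM in VEC libraries. RNVU1-32 was at 63.3 FPKM in Q63E replicate 3 and at 0 elsewhere, and RNU4-25P was at 6.95 FPKM in Q63E replicate 1 and at 0 elsewhere. CYRIB, a regulator of RAC1, is the next tested gene downstream but lies 1738340 bases away, outside the 1 Mb window. It was lower (-0.27, adjusted p = 0.0101, limma).

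Across the members, 46 annotated genes overlap a member on either strand, and 37 of them were at 0 in all libraries. Among 24 other tested long noncoding RNAs linked to cancer, 3 were higher, 1 lower and 20 did not pass, with a median log2 difference of 0.03. Of all genes tested 25.3% passed, and of the long noncoding ones 12.7%. NORAD, which binds Pumilio proteins, was higher at 129 ± 0.73 FPKM in Q63E and 86.1 ± 3.92 FPKM in VEC cells (SD, n = 3 each; 0.58, adjusted p = 0.000349, limma). LINC01116 was higher (0.60) and MIR22HG, the host of miR-22, was lower (-0.59), and NORAD, LINC01116 and MIR22HG kept their calls in every alternative. CRNDE was also higher (0.27, adjusted p = 0.0390, limma), a call lost in 9 of 17 alternatives.

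For NEAT1 and MALAT1, the protein-coding gene with the most similar pattern over the 6 libraries was taken from 11568, by the smallest root mean square difference of log2(FPKM + 1) values centred on their mean. The added 1 shrinks weak genes more than strong ones, so a weak gene that is like NEAT1 on this scale can differ more in FPKM: with 0.1 added the log2 difference was 2.22 for ATRNL1 and 1.06 for NEAT1. For NEAT1 this was ATRNL1 (difference 0.066), at 2.35, 1.66 and 1.73 FPKM in Q63E libraries, against 0.49, 0.24 and 0.29 FPKM in VEC libraries. For MALAT1 it was FBF1 (0.039), at 7.94, 7.05 and 6.81 FPKM in Q63E libraries, against 4.42, 5.49 and 6.01 FPKM in VEC libraries. Both genes lie on another chromosome than the member they resemble, and both follow the member's order of groups because the rule asks for it.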

How the data were processed

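RNA of 6 T24 libraries (3 Q63E, 3 VEC) was sequenced from Illumina TruSeq libraries, per the labels' protocols. Each library has a table deposited by the authors, in which 649 of 58882 rows name no gene and were left out. The unit is not named there. The deposited values were taken as FPKM from their range and sums, so a count test could not be used. HISAT2 2.1.0, Bowtie2 and GRCh38.p10 are named in the submitters' processing notes, without a role or an order. The sources used here do not give the program that counted reads, its annotation or its strand setting. Whole reads were not recovered: at best 24.7 to 26.0% of low values lay within 0.1 of a whole multiple, where 20% would with no steps. Depth is therefore unknown.

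Symbols came from a gene table (57392 rows matched) and spans from GENCODE release 29 (57895 rows matched). Genes with a mean of at least 1 were tested with limma 3.58.1 in R 4.3.3 on log2(value + 1), with an intensity trend and group alone, and the fit was tested on simulated data. Two-sided p-values were adjusted over all genes tested. Intervals are 95% and unadjusted. Named genes were the members, overlapping genes with a mean of at least 1, nearest tested neighbours, up to 4 called genes per list by size of difference (the 2 most abundant where fewer than 2 passed), the most similar gene to each called member, and RHOC. HOXC11, IGF2, SFPQ, NONO, REST, MIR675, MIR612, GAS5-AS1, LINC01764, ENSG00000284526 and the remaining called snoRNA hosts were named outside this rule, after their values were seen. Some genes that the rule names are not reported here. Members and lists were chosen with earlier results of these data known. Alternatives changed the pseudocount, filter, scaling, variance model, replicate block and libraries used.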

Additional observations from a re-analysis of the deposited data

How the results depend on the processing

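NEAT1 and H19 kept their direction and call in all 17 alternatives, with log2 differences of 0.94 to 1.16 for NEAT1 and -0.98 to -0.31 for H19. MALAT1 kept its direction and lost its call in 6, the replicate block among them (adjusted p = 0.0643, limma), and under the block UPF1 (0.0619), UPF3B (0.0554) and REST (0.0713) also lost theirs. Of all genes tested 3383 passed, against 2208 with a replicate block and 2350 to 2630 without single libraries. Members that passed numbered 3, against 2 with no filter or with the replicate block and 2 to 3 without single libraries. The gene lists held 37 passing genes of 158, against 24 without the variance trend, 20 with the replicate block and 19 to 24 without single libraries. Fewer residual degrees of freedom remain under the block and without a library. Deviations of same-numbered libraries correlated at -0.04, -0.0087 and -0.02, so no pairing by replicate number showed. These correlations cannot tell whether libraries were prepared in numbered pairs, which the labels do not say. Of 37 named genes other than members that passed, 19 kept their call in every alternative. Of 20 that did not pass, 18 passed in no alternative. HOXC13 passed without the variance trend (adjusted p = 0.0313, limma), and FBF1 passed with quantile normalization (adjusted p = 0.0462, limma).

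Some genes that did not pass changed sign. PHF19 reached -0.0066 with equal sums over nuclear rows other than RHOC, and TPM4 0.0011 with equal sums over all rows. Without single libraries the log2 difference ranged from -0.0049 to 0.067 for GAS5, -0.014 to 0.024 for PHF19, -0.17 to 0.0057 for HOXC6, -0.60 to 0.74 for FAUP4, -0.26 to 0.26 for RC3H1, -1.20 to 1.46 for RNU2-2P, -0.16 to 0.0076 for RCC1 and -0.19 to 0.00040 for TRNAU1AP. Depth is unknown, so counting error cannot be stated. The weak values of H19 and the erratic small RNA rows carry an error that the tables do not show.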
